A study of Homo sapiens with 6 samples.

Results

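Cadherins are cell surface proteins whose repeated extracellular domains bind like domains on a neighbouring cell in the presence of calcium. The 91 genes described here are every protein-coding gene of the deposited table whose symbol is CDH, PCDH or FAT followed by a number, or a member of the clustered protocadherins (PCDHA, PCDHB or PCDHG), out of 62754 genes in the table, 20075 of them protein coding. They were sorted into 8 classes by symbol: 5 type I classic cadherins, 13 type II classic cadherins, 5 other CDH genes, 4 FAT cadherins, 11 non-clustered protocadherins, and the alpha (15), beta (16) and gamma (22) protocadherin clusters. The study measured polyadenylated RNA of HPNE-hTERT, an immortalized line of non-malignant human pancreas cells that carries the telomerase gene hTERT and is labelled ductal epithelial. Cells received FOLFIRINOX to induce senescence, a mixture of oxaliplatin at 5 µM, SN-38 (the active form of irinotecan) at 25 nM and 5-fluorouracil at 10 µM, or DMSO as vehicle, and both groups were taken at day 4. There were 3 libraries per group, named P14, P15 and P19 in both. All libraries are of 1 cell line, and no label says that they came from separate cultures, and the spread behind every p-value is that of these libraries alone, which may be technical.

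Classic cadherins hold adherens junctions together, and their tails bind catenins that link them to actin. Type I members such as CDH1 (E-cadherin) and CDH2 (N-cadherin) mark epithelial and mesenchymal or neural cells, and loss of the first with gain of the second is a textbook sign of epithelial-mesenchymal transition. FAT cadherins are giant members that signal with Dachsous partners in planar polarity and growth control. The clustered protocadherins lie in tandem on chromosome 5, are best known for giving neurons a surface identity, and are each read from a promoter of their own. An alpha or gamma transcript splices its own first exon to exons shared by its cluster, whereas a beta gene has no shared exons.

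In these libraries 12 of 14 tested beta protocadherins were called higher after FOLFIRINOX. The abundant N-cadherin, R-cadherin (CDH4) and T-cadherin (CDH13) fell while FAT1 rose. Of 20 tested gamma protocadherins 3 were called higher and 1 lower, where 11.4% and 12.2% of all genes were. When libraries of the same P number are paired these gamma counts were 12 and 1, against 22.3% and 21.8% of all genes. With no filter on low values, or without both P14 libraries, 0 gamma genes were called higher. Of the 91 genes, 52 reached 10 normalized reads in at least 3 libraries and were tested, 2 of them (CDH10 and PCDHA10) through FOLFIRINOX libraries alone, so that these had to differ in order to be tested. In limma's test with Benjamini-Hochberg adjustment over 17951 genes, 17 were called higher, CDH10 among them, and 5 lower at adjusted p under 0.05, against 11.4% of all genes tested called higher and 12.2% called lower (23.6% either way). The median log2 difference (FOLFIRINOX minus vehicle, on log2 of the value plus 1) was 0.60 over the 52 and 0.02 over all genes tested. All 3 FOLFIRINOX libraries lay above all 3 vehicle libraries for 30 of the 52 and below them for 6, where 19.9% and 19.6% of all genes did so (39.5% either way). The 30 include CDH10 and PCDHA10, for which the filter fixed this outcome in advance. The same P number marks libraries that deviate together, and with that number as a block 32 were called higher and 6 lower, with 22.3% of all genes called higher and 21.8% lower (44.1% either way). CDH10 and PCDHA10 are again among the 32. In edgeR on recovered reads 15 were higher and 5 lower (10.1% and 13.3% of all genes, 23.4% either way), and without both P14 libraries 12 were higher and 3 lower in limma (6.43% and 7.39% of all genes, 13.8% either way).

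**Figure D1:**
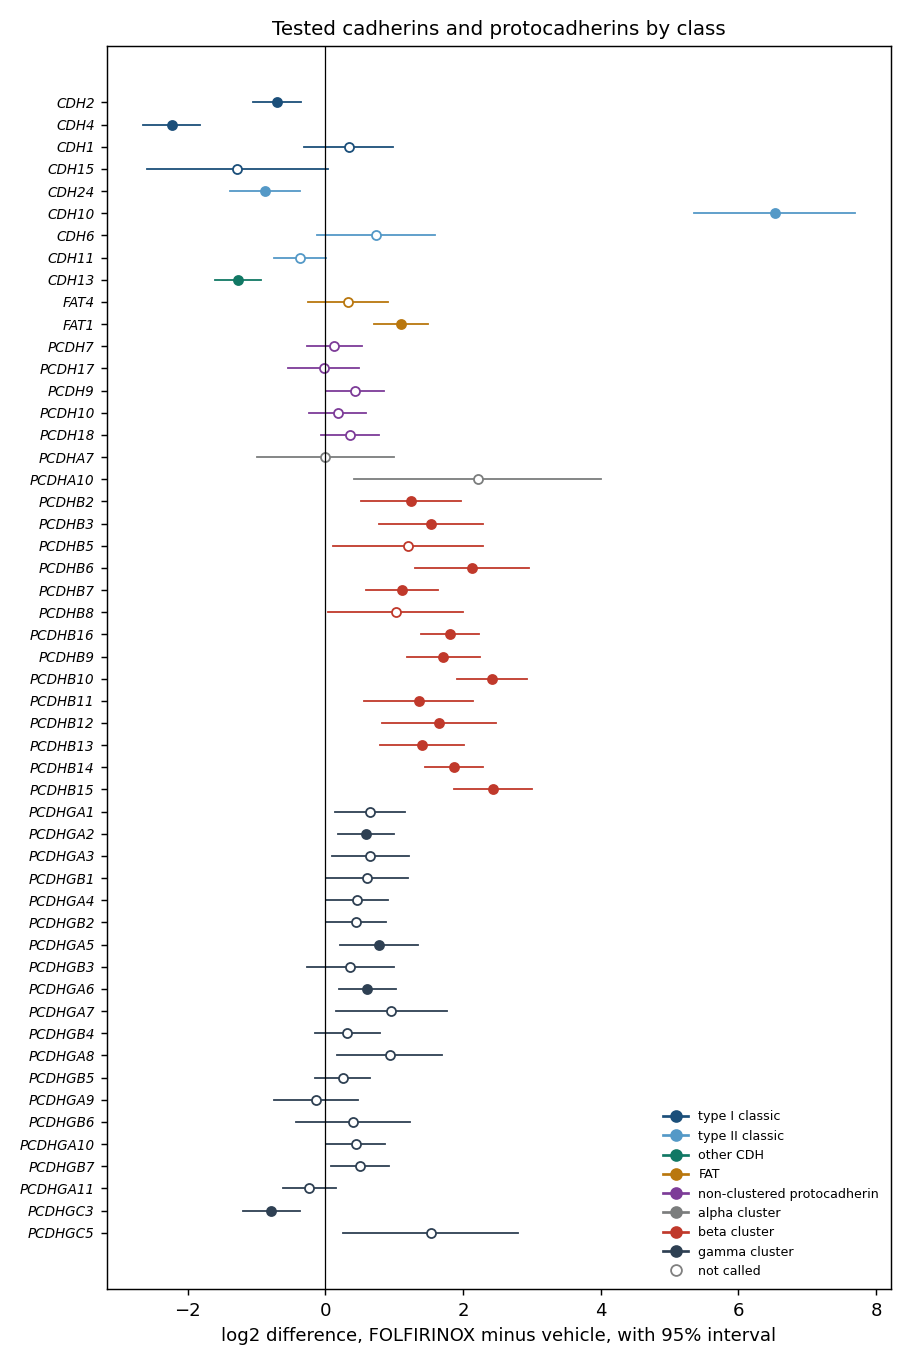
Log2 difference (FOLFIRINOX minus vehicle, 3 libraries per group, log2 of normalized reads plus 1) of the 52 tested genes, coloured by class, with 95% intervals from limma. Filled points passed an adjusted p of 0.05. The 14 beta genes lie between 1.02 and 2.44, and CDH10, with no read in vehicle, has a fitted value that depends on the added 1.

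The promoters of the beta genes share a word of sequence, shown here because the 14 tested beta genes all had higher means after FOLFIRINOX. RefSeq promoters of the GRCh38.p14 build, from 250 bases before to 50 bases after a start, were matched by symbol for 70 of the 91 genes (88 starts), among them 14 of 16 beta genes. The 8-letter word found in most beta promoters, read on either strand, was GTGGCGCT (reverse complement AGCGCCAC). It was in 13 of the 14 beta promoters, in 0 of 13 alpha and 0 of 25 gamma starts, and in 404 of all 35116 promoters (1.15%). In each of the 13 promoters it read as GTGGCGCT on the gene's own strand and began 1 to 83 bases before the start. The word was picked from these promoters, so its count in them is a description. The word GGTGGCGC (reverse complement GCGCCACC), which overlaps it, was in the same number of beta promoters and in 2.23% of all. Windows of 30 bases around the word, on the plus strand from chr5:141094546-141094575 (PCDHB2) to chr5:141245316-141245345 (PCDHB15), are given in gene order with the word in capitals.
PCDHB2: gagacgcgggGTGGCGCTgcagccttagaa
PCDHB3: cgaacgcatgGTGGCGCTgttgactaagaa
PCDHB4: aagacgcaggGTGGCGCTgcaggctaagtt
PCDHB5: aggacgcctgGTGGCGCTgcaggctaagag
PCDHB7: aaaacgcaagGTGGCGCTgctggctaaaaa
PCDHB8: aggacccgtgGTGGCGCTgcaggataagaa
PCDHB16: agaacgcgtgGTGGCGCTgcaggttaagat
PCDHB9: aagccacaagGTGGCGCTgcagactgaaga
PCDHB10: aggccacacgGTGGCGCTgcaggctaaaga
PCDHB12: gagacgcgtgGTGGCGCTgcaggataatat
PCDHB13: aggacgcgtgGTGGCGCTgcaggataagaa
PCDHB14: gagacacatgGTGGCGCTacaggataagac
PCDHB15: acaacgcatgGTGGCGCTgcaggctaaggc
Besides the word itself, 6 positions of the window held the same base in all 13 genes. PCDHB5 and PCDHB8, which were not called, and PCDHB4, which was too low to test, carry the word, as do the called genes with a listed promoter. No tested beta gene with a listed promoter lacks the word, so its presence cannot be set against the differences. Its part in them was not tested.

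PCDHB1 was the beta gene with a listed promoter but no exact match, and it had 0 reads in all 6 libraries. On its own strand it holds a stretch at chr5:141051339-141051368 that differs from the word by 1 substitution, C5T, counted from the 5′ end of GTGGCGCT, and 26.5% of all promoters match the word with at most 1 substitution on either strand.
PCDHB1: ctagcctttgGTGGTGCTgcagttagaggc
The words found in most alpha and gamma promoters by the same search were others, ATGTCGCT (reverse complement AGCGACAT, tied with the overlapping GATGTCGC) in 9 of 13 alpha genes and GCCGCTGT (reverse complement ACAGCGGC) in 11 of 20 gamma genes, held by 0.234% and 1.63% of all promoters. The beta word and the first word of each other cluster contain the letters CGCT, which 70.0% of all promoters hold on either strand.

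Whole promoters are given for PCDHB10 and PCDHB15, which had the largest beta differences, and for PCDHGC3, the clustered gene that was called lower. They lie on the plus strand at chr5:141192103-141192402, chr5:141245145-141245444 and chr5:141475716-141476015, with the cluster's word in capitals (the beta word in the first 2, the gamma word in the last).
PCDHB10: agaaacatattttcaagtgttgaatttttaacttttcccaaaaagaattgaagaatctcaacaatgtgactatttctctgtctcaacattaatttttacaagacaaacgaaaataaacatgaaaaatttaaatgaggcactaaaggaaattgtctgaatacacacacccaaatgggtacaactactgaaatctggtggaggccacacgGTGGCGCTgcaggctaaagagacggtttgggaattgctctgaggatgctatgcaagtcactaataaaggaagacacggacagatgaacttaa
PCDHB15: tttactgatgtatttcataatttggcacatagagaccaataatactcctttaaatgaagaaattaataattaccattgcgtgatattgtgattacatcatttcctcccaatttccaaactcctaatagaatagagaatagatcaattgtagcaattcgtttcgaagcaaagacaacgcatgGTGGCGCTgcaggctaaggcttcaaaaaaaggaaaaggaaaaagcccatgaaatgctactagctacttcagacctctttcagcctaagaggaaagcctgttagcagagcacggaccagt
PCDHGC3: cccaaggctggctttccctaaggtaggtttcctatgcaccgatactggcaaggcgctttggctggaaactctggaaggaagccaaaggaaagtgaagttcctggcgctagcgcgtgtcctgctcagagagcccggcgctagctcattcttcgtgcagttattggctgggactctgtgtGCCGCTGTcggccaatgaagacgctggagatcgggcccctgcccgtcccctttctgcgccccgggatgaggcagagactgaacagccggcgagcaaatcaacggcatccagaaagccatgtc
The beta promoters held few CpG dinucleotides, a median of 7.5 in 300 bases against 14 over all promoters, but so did the alpha promoters (median 7) and the promoters of all members (median 8). Gamma promoters had a median of 10, and that of PCDHGC3 held 18.

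The beta cluster (chr5:141051135-141249365, GRCh38, PCDHB1 to PCDHB15) had the most calls of the 8 classes, with 12 of 14 tested genes called higher, 0 lower, and a median log2 difference of 1.59. Over all genes tested 11.4% were called higher and the median was 0.02. Summed over the 16 genes, normalized reads were 2808, 3364 and 3262 after FOLFIRINOX (in the order P14, P15, P19, as for all values given by library) and 963, 974 and 822 in vehicle. That is 3145 ± 296 (SD, n = 3) against 920 ± 84.5 (SD, n = 3), a ratio of 3.42, and the groups did not overlap. PCDHB14 gave the most reads in both groups, with 23.7% of the sum after FOLFIRINOX and 22.2% in vehicle.

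PCDHB10 had 301, 368 and 331 normalized reads after FOLFIRINOX and 60.4, 53.1 and 72.0 in vehicle. Every treated library was above every vehicle library, and the log2 difference was 2.42 ± 0.23 (SE), adjusted p = 2.64e-05 in limma. PCDHB15 had 235, 331 and 374 against 61.5, 59.4 and 47.7, a log2 difference of 2.44 ± 0.26 (limma adjusted p = 5.89e-05). These genes, like the rest of the cluster, code for single-pass surface proteins with cadherin repeats and a short tail of their own.

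PCDHB14 had 692, 779 and 762 normalized reads after FOLFIRINOX and 225, 215 and 171 in vehicle, and rose by 1.87 ± 0.19 on the log2 scale (limma adjusted p = 5.0e-05). PCDHB16 had 497, 545 and 492 against 157, 139 and 138 and rose by 1.81 ± 0.19 (limma adjusted p = 5.77e-05). PCDHB6 had 213, 187 and 164 against 69.7, 46.7 and 22.4 and rose by 2.13 ± 0.38 (limma adjusted p = 0.00227). In all 3 genes the groups were apart, and the vehicle libraries of PCDHB6 had the widest spread relative to their mean.

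PCDHB9, PCDHB3, PCDHB13 and PCDHB7 were also called higher, by 1.71 ± 0.24, 1.54 ± 0.34, 1.40 ± 0.28 and 1.11 ± 0.23 on the log2 scale (limma adjusted p from 5.31e-04 to 0.00824). PCDHB12 had 80.2, 65.9 and 42.0 normalized reads against 17.4, 23.3 and 15.9, a log2 difference of 1.65 ± 0.37 (limma adjusted p = 0.0091), and its adjusted p was 0.0855 without both P14 libraries. PCDHB2 had 65.8, 76.7 and 105 against 45.1, 27.6 and 29.9, a log2 difference of 1.25 ± 0.33 (limma adjusted p = 0.0189), which became 0.0956 without FOLFIRINOX P19 and 0.0592 without vehicle P15. PCDHB11 had 39.1, 62.0 and 44.8 against 18.4, 17.0 and 18.7, a log2 difference of 1.36 ± 0.36 (limma adjusted p = 0.019). Its adjusted p rose to between 0.0502 and 0.0863 on omitting treated P15, treated P19, vehicle P15 or the P14 pair, and was 0.0607 with no filter on low values. The groups did not overlap in any of these genes.

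PCDHB5 and PCDHB8 were tested and not called. PCDHB5 had 22.6, 33.4 and 33.6 normalized reads against 10.2, 23.3 and 7.48, with 1 vehicle library inside the treated range, and a log2 difference of 1.20 ± 0.49 (limma adjusted p = 0.104, and 0.0445 with the replicate block). PCDHB8 had 33.9, 62.9 and 28.0 against 12.3, 21.2 and 25.2, with no overlap, and a log2 difference of 1.02 ± 0.44 (limma adjusted p = 0.121, and 0.0482 with the block). Within each P number the treated library was above its vehicle partner for all 14 tested beta genes, where 33.7% of all genes tested were higher in all 3 pairs. PCDHB4 stayed under the filter, at 8.23, 5.90 and 13.1 against 2.05, 8.49 and 0.

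**Figure D2:**
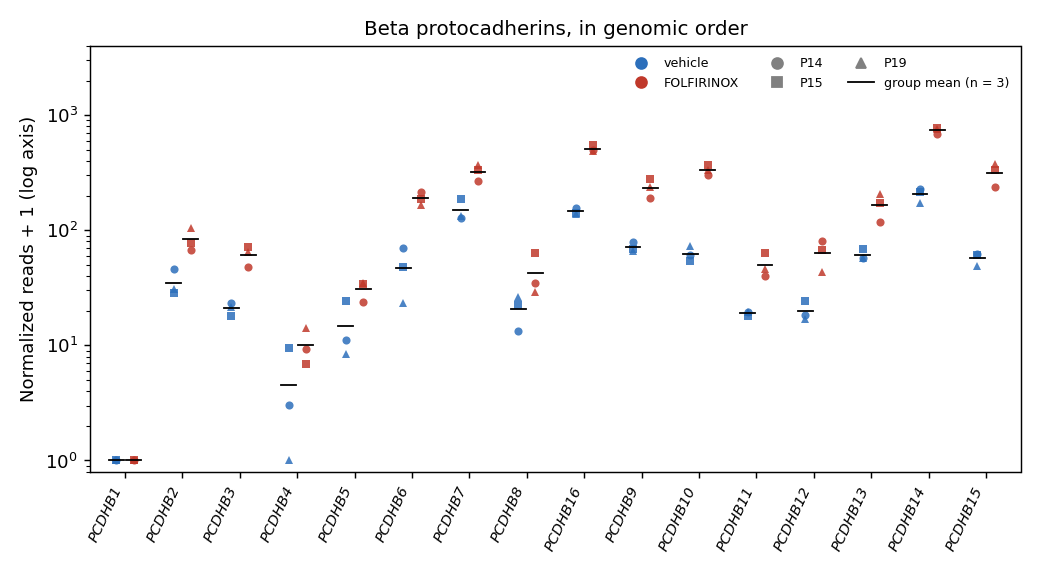
Normalized reads plus 1 (log axis) of the 16 beta protocadherins in genomic order, by library (circle P14, square P15, triangle P19) and group, with the mean of 3 libraries as a bar. PCDHB1 sits at 0 reads, and 13 genes have all treated libraries above all vehicle libraries.

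Levels of different genes were compared as all normalized reads of a gene per kilobase of its exonic sequence that no other gene shares. On that scale the beta genes after FOLFIRINOX stood at 160 for PCDHB14, 136 for PCDHB16 and 103 for PCDHB10, with PCDHB11 at 12.0 and PCDHB5 at 10.3. Vehicle levels per kilobase of the same genes were 43.8, 38.5, 19.1, 4.43 and 4.71.
For comparison, the gamma genes with most reads in either group stood at 904 (PCDHGB5) and 466 (PCDHGC3) per kilobase after FOLFIRINOX and at 767 and 804 in vehicle. Any reads counted on shared bases raise these gamma levels. Per kilobase of all exonic bases the same 2 genes stood at 498 and 279 after FOLFIRINOX and at 422 and 481 in vehicle, and PCDHB14 at 154 and 42.2.
Beta genes resemble one another in sequence, so reads may be shared out between them. A median of 11.8% of the 75-base windows of a beta gene also occurred in another gene, with the highest shares in PCDHB8 (38.8%) and PCDHB10 (29.1%), and PCDHB12 at 7.98%.

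The gamma cluster (chr5:141330571-141512981) gave totals that overlapped between groups, with 11590 ± 906 normalized reads after FOLFIRINOX and 10782 ± 1729 in vehicle (SD, n = 3), a ratio of 1.07. Of 20 tested gamma genes 3 were called higher and 1 lower, with a median log2 difference of 0.48, against 23.6% of all genes called either way. All treated libraries lay above all vehicle libraries in 13 of the 20 (19.9% of all genes tested), and below them in 1, PCDHGC3. With the replicate block 12 gamma genes were called higher and 1 lower (22.3% and 21.8% of all genes), and without both P14 libraries 0 were called in either direction. In 16 of the 20 the treated library was above its partner in all 3 pairs, and in 1 it was below in all 3. Of all genes tested 33.7% were above and 31.5% below in all 3 pairs.

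The 3 gamma genes called higher were PCDHGA2, PCDHGA5 and PCDHGA6. PCDHGA2 had 666, 652 and 638 normalized reads against 519, 389 and 400 (log2 difference 0.59 ± 0.19, limma adjusted p = 0.041). PCDHGA6 had 592, 683 and 586 against 394, 474 and 352 (0.61 ± 0.19, limma adjusted p = 0.0383), and PCDHGA5 had 180, 145 and 191 against 75.8, 120 and 106 (0.79 ± 0.26, limma adjusted p = 0.0475). The groups were apart in all 3, yet each call sat near the threshold. Over the alternatives tried, adjusted p reached 0.142 for PCDHGA2, 0.13 for PCDHGA6 and 0.233 for PCDHGA5, and each library left out in turn ended the call of at least 1 of them.

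PCDHGC3, one of the C-type genes next to the shared exons, moved the other way. It had 1275, 1712 and 1562 normalized reads after FOLFIRINOX and 2637, 3024 and 2183 in vehicle. All treated libraries were below all vehicle libraries, a log2 difference of −0.78 ± 0.19 (limma adjusted p = 0.0115). It gave the most gamma reads in vehicle, 24.2% of the cluster's sum, and 13.1% after FOLFIRINOX. The adjusted p was 0.0532 without vehicle P15 and 0.0924 without both P14 libraries. PCDHGC5, the last gene of the cluster, had 19.5, 45.2 and 28.0 against 15.4, 13.8 and 3.74 (log2 difference 1.53 ± 0.58, limma adjusted p = 0.0804, and 0.0189 with the block), and PCDHGC4 stayed under the filter.

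Besides PCDHGC3, the 3 most abundant gamma genes by reads were not called. PCDHGB5 had 2224, 2610 and 2408 against 2071, 2421 and 1654, with overlapping groups (log2 difference 0.25 ± 0.18, limma adjusted p = 0.347). PCDHGA11 had 1296, 1350 and 1335 against 1531, 1863 and 1321, also overlapping (−0.23 ± 0.18, limma adjusted p = 0.377). PCDHGB2 had 1468, 1787 and 1365 against 1208, 1322 and 883, with no overlap (0.45 ± 0.20, limma adjusted p = 0.131, and 0.00799 with the block). The 95% intervals of these log2 differences ran from −0.15 to 0.65 for PCDHGB5, from −0.61 to 0.16 for PCDHGA11 and from 0.01 to 0.89 for PCDHGB2.

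**Figure D3:**
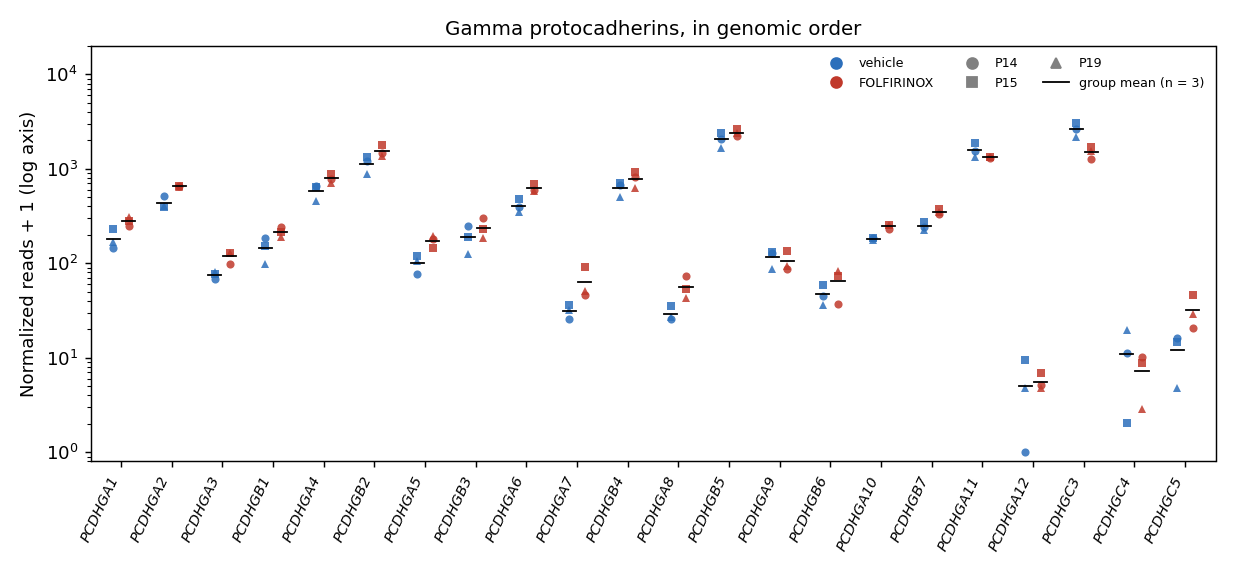
Normalized reads plus 1 (log axis) of the 22 gamma protocadherins in genomic order, by library and group, with the mean of 3 libraries as a bar. In 13 of the 20 tested genes all treated points lie above all vehicle points, and in PCDHGC3 all lie below.

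Gamma genes share more of their annotated sequence than beta genes. A median of 43.9% of the exonic bases of a gamma gene, and 49.4% of an alpha gene, belong to other annotated genes as well, against 5.14% for beta genes. How reads on shared bases were counted is not given in the sources used here, and neither is the strand setting, so reads from a gene and an overlapping antisense transcript cannot be told apart.

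The alpha cluster (chr5:140786136-141012347) was close to silent, with 61.3 ± 9.92 normalized reads in all after FOLFIRINOX and 28.4 ± 6.99 in vehicle (SD, n = 3). PCDHA7 had 24.7, 18.7 and 11.2 against 16.4, 17.0 and 18.7, with overlapping groups and a log2 difference of 0.00 ± 0.45 (limma adjusted p = 0.999). PCDHA10 had 10.3, 15.7 and 18.7 against 6.15, 4.24 and 0, with no overlap and a log2 difference of 2.21 ± 0.81 (limma adjusted p = 0.0735, 0.0878 with no filter and 0.0287 with the block). The filter let PCDHA10 in through the FOLFIRINOX libraries alone, so its lack of overlap was fixed in advance. PCDHA1 had 8.23, 5.90 and 16.8 against 0, 4.24 and 1.87, and PCDHA3 had 10.3, 5.90 and 1.87 against 2.05, 4.24 and 1.87, both under the filter. PCDHA13, with 4.11, 1.97 and 5.60 against 0 in every vehicle library, was called higher when no filter was set (limma adjusted p = 0.035) and is named after its values were seen.

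**Figure D4:**
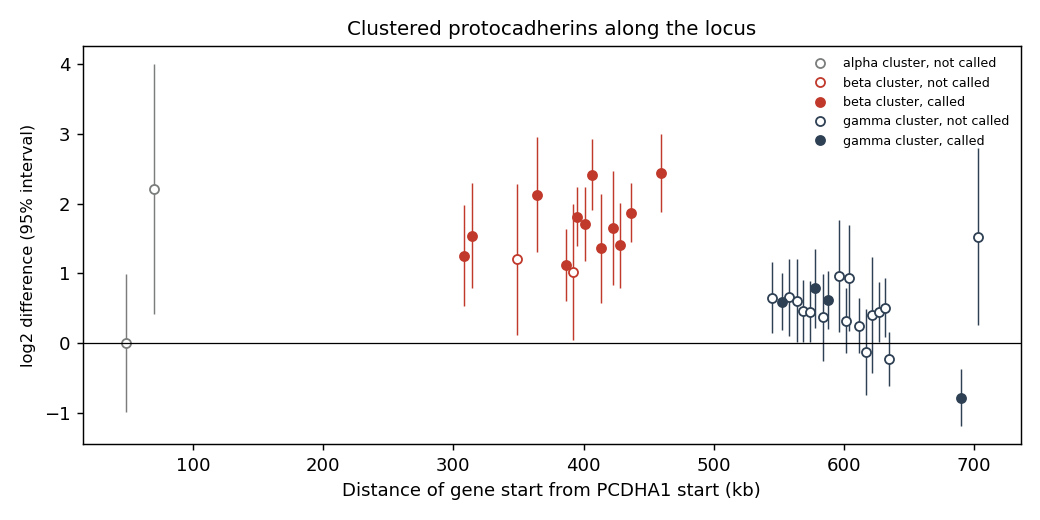
Log2 difference with 95% interval of each tested clustered protocadherin against the distance of its start from that of PCDHA1, in kilobases. The beta genes, in the middle of the locus, lie between 1.02 and 2.44, and the gamma genes to their right run from −0.78 to 1.53.

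TAF7, a subunit of the general transcription factor TFIID and a gene that sits between the beta and gamma clusters, had a log2 difference of 0.14 ± 0.14 (limma adjusted p = 0.516). A long intergenic RNA just upstream of the gamma cluster, AC005618.1, had 155, 183 and 207 normalized reads against 100, 60.5 and 90.7 and was called higher by 1.13 ± 0.27 on the log2 scale (limma adjusted p = 0.0111). Both neighbours were named after their values were seen.

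Among type I classic cadherins, which anchor beta-catenin and p120-catenin at junctions, 2 of 4 tested genes were called lower and 0 higher, with a median log2 difference of −0.99, where 12.2% of all genes tested were called lower. N-cadherin (CDH2) had 7382, 7614 and 8043 normalized reads after FOLFIRINOX and 10447, 14121 and 13186 in vehicle. The groups were apart, and it fell by 0.70 ± 0.16 on the log2 scale (limma adjusted p = 0.00969). R-cadherin (CDH4) had 520, 677 and 636 against 2664, 3465 and 2517, a log2 difference of −2.23 ± 0.19 (limma adjusted p = 1.12e-05), the largest fall among the 52 tested genes. E-cadherin (CDH1) had 73.0, 55.1 and 65.4 against 47.1, 43.5 and 62.6, with overlapping groups and a log2 difference of 0.34 ± 0.30 (limma adjusted p = 0.442). M-cadherin (CDH15), known from muscle, had 6.17, 8.85 and 13.1 against 41.0, 9.55 and 30.8 (log2 difference −1.28 ± 0.60, limma adjusted p = 0.149, and 0.0384 without vehicle P15), and P-cadherin (CDH3) stayed under the filter, with means of 1.65 and 1.25.

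CDH2 took 81.0% of the type I reads in vehicle and 91.8% after FOLFIRINOX. Per exonic kilobase, CDH2 exceeded CDH1 by 277, 405 and 263 times in the vehicle libraries and by 126, 173 and 154 times in the FOLFIRINOX libraries. N-cadherin thus stayed the main type I transcript in all 6 libraries, and the ratio was lower in every treated library. The line is labelled ductal epithelial. Of 10 ductal markers 5 were tested and 5 were under the filter, KRT19, EPCAM, CLDN4 and CFTR among the latter, while all 10 mesenchymal markers were tested. Of the ductal markers 2 of 5 tested were called lower and 0 higher, with a summed level of 8901 to 9910 after FOLFIRINOX and 11920 to 14397 in vehicle. Of the mesenchymal markers 5 of 10 were called lower and 0 higher, with a summed level of 2751923 to 3335812 against 3763610 to 5555802, and the part of either in the cadherin results was not tested. Over all genes tested 12.2% were called lower and 11.4% higher. In bulk RNA, fewer cells of a type and less RNA per cell cannot be told apart.

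Type II cadherins, which share the catenin-binding tail but differ in the adhesive face, had 4 of 13 genes tested, of which 1 was called higher and 1 lower (11.4% and 12.2% of all genes tested). CDH10, mostly known from brain, had 86.4, 95.4 and 91.5 normalized reads after FOLFIRINOX and 0 in every vehicle library. Its treated mean was 30.2 times a floor of 3 reads per library. If both mates of a fragment were counted, 3 reads are fewer than 3 fragments, so this fold is not a firm lower bound. CDH10 passed the filter through the FOLFIRINOX libraries alone, so its call in the main test is no evidence of its own. With no filter on low values limma's adjusted p was 3.1e-06. The 3 treated libraries lay within a narrow range, from 279 reads in all. CDH24 had 286, 418 and 321 against 671, 745 and 471, a log2 difference of −0.87 ± 0.23 (limma adjusted p = 0.0198), and the groups were apart. Its adjusted p was 0.159 without both P14 libraries and from 0.0585 to 0.0777 when a single library was omitted (treated P14 or P19, vehicle P14 or P15).

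OB-cadherin (CDH11), a mesenchymal and osteoblast cadherin that made up 86.3% of type II reads after FOLFIRINOX and 85.8% in vehicle, had 3168, 3506 and 2741 against 3622, 4687 and 3884. The groups were apart, with a log2 difference of −0.37 ± 0.17 (limma adjusted p = 0.142, and 0.0128 with the block). K-cadherin (CDH6), known from kidney, had 67.9, 35.4 and 63.5 against 22.5, 44.6 and 31.8, with overlap and a log2 difference of 0.73 ± 0.39 (limma adjusted p = 0.199). VE-cadherin (CDH5), the endothelial cadherin, had reads in 1 vehicle library, at 2.05, and 0 in the other libraries.

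CDH13 (T-cadherin) is held in the membrane by a lipid anchor and has no catenin-binding tail, and it was the only one of the 5 other CDH genes to pass the filter. It had 4705, 5141 and 4344 normalized reads after FOLFIRINOX and 11517, 12156 and 10385 in vehicle. Every treated library was below every vehicle library, and it fell by 1.26 ± 0.15 on the log2 scale (limma adjusted p = 1.67e-04). CDH26 had 20.6, 21.6 and 7.47 against 0, 6.37 and 4.67, and CDH17 (LI-cadherin, of liver and intestine) had 6.17, 5.90 and 11.2 against 2.05, 0 and 0. Both were too low to test, although CDH17 was called higher when no filter was set (limma adjusted p = 0.0313). CDH23, the tip link cadherin of the inner ear, had 0, 1.97 and 7.47 against 0 in every vehicle library.

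**Figure D5:**
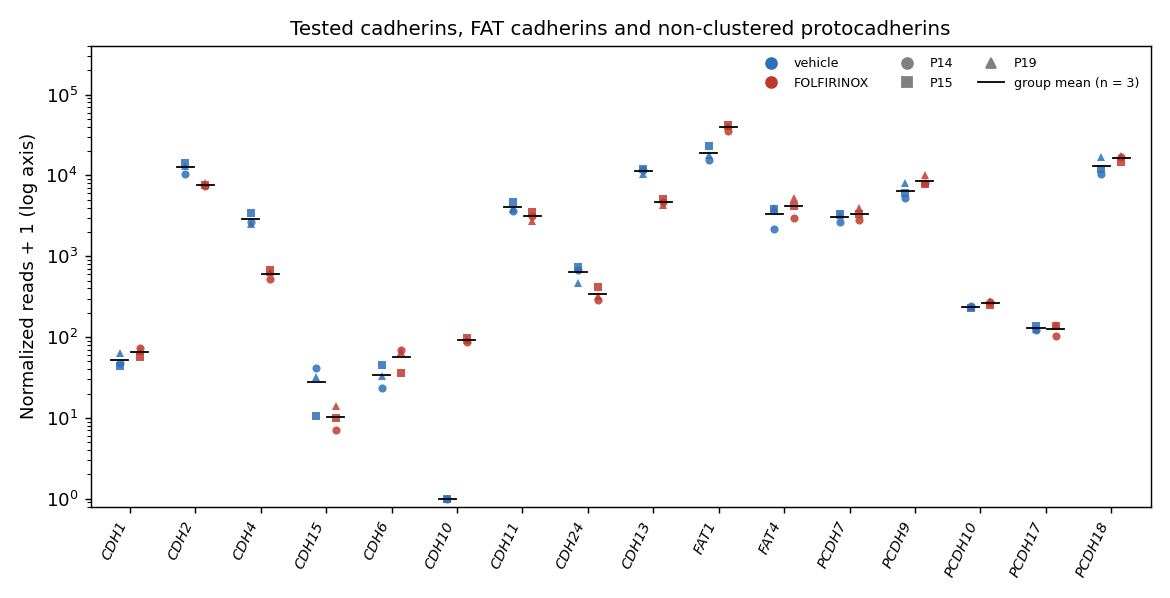
Normalized reads plus 1 (log axis) of the 16 tested genes outside the clusters, by library and group, with the mean of 3 libraries as a bar. CDH10 is at 0 reads in the vehicle libraries, CDH4 and CDH13 are lower and FAT1 higher after FOLFIRINOX with no overlap.

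FAT1, the most abundant of its class, had 35528, 42587 and 41418 normalized reads after FOLFIRINOX and 15371, 23000 and 18080 in vehicle. All treated libraries were above all vehicle libraries, and it rose by 1.10 ± 0.18 on the log2 scale (limma adjusted p = 0.00132). FAT4, the receptor for DCHS1, had 2992, 4218 and 5223 against 2189, 3825 and 3991, with overlap and a log2 difference of 0.33 ± 0.26 (limma adjusted p = 0.403, and 0.0279 with the block). FAT3 had means of 5.86 and 2.72 and FAT2 had reads in 1 library, so neither was tested. Per kilobase of unshared exonic sequence FAT1 went from 1163 in vehicle to 2463 after FOLFIRINOX, next to PCDH18 at 1948 and 2453 and CDH2 at 2614 and 1595.

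Of the 11 non-clustered protocadherins, which are read from single genes scattered over the genome, 5 were tested and 0 were called in limma, with a median log2 difference of 0.18. PCDH18 had 16888, 14678 and 17636 normalized reads against 10346, 11917 and 16807, with overlap and a log2 difference of 0.36 ± 0.19 (limma adjusted p = 0.206). PCDH9 had 7989, 7777 and 10069 against 5231, 6039 and 8054, with overlap and a log2 difference of 0.43 ± 0.19 (limma adjusted p = 0.13). With the block their adjusted p was 0.0129 and 0.00242, and without vehicle P19 it was 0.0357 and 0.0329. PCDH7 (0.13 ± 0.18, limma adjusted p = 0.642) overlapped, and PCDH10 had 271, 252 and 276 against 242, 229 and 234, without overlap but with a log2 difference of only 0.18 ± 0.19 (limma adjusted p = 0.531). PCDH1, known from airway epithelium, had means of 3.99 and 2.61 and PCDH19, the X-linked epilepsy gene, 7.73 and 2.07, both under the filter.

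The 39 genes that were not tested had at most 21.6 normalized reads in any library (CDH26). Of these, 7 had 0 reads in all libraries, 14 had 0 in the vehicle libraries alone and 3 in the FOLFIRINOX libraries alone. The untested genes comprise 13 alpha genes, 9 type II cadherins, 6 non-clustered protocadherins, 4 other CDH genes and 2 each of the beta, gamma and FAT classes, besides CDH3.

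Genes that work with cadherins were taken from lists chosen with earlier results of these data known, and are given as counts, to be read against all genes tested, of which 11.4% were called higher and 12.2% lower (23.6% either way), or 22.3% and 21.8% with the block. Among catenins and junction adaptors 3 of 13 tested genes were called higher and 1 lower (median log2 difference 0.07, against 0.02 over all genes tested), and 5 were lower with the block. NECTIN4, a nectin that adheres through immunoglobulin domains, had 250, 348 and 397 normalized reads against 4.10, 10.6 and 3.74, a log2 difference of 5.64 ± 0.40 (limma adjusted p = 3.08e-06). ARVCF, a catenin of the p120 family, had 87.4, 172 and 165 against 22.5, 12.7 and 22.4, a log2 difference of 2.80 ± 0.37 (limma adjusted p = 3.7e-04). The third gene called higher was plakoglobin (JUP, 0.98 ± 0.31, limma adjusted p = 0.0424), whose call was lost in 8 of 15 alternatives, and afadin (AFDN) was the gene called lower, named after its values were seen. The AFDN call was lost in 2 of 15 alternatives, without treated P15 (adjusted p 0.0568 in limma) and without vehicle P15 (0.0683).

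Among 10 EMT factors that repress cadherin genes 0 were called higher and 1 lower (median −0.12), and 2 were lower with the block, in edgeR, in DESeq2 and with a pseudocount of 8. The gene called lower was TWIST2, with 274, 388 and 272 normalized reads against 1203, 1113 and 904 and a log2 difference of −1.79 ± 0.21 (limma adjusted p = 1.33e-04). SNAI1 (Snail), a repressor of E-cadherin named after its values were seen, lay just past the threshold. It had 20.6, 21.6 and 9.34 against 106.5, 53.1 and 24.3, with no overlap and a log2 difference of −1.62 ± 0.55 (limma adjusted p = 0.0533, 0.00149 with the block and 0.0368 in edgeR). Of 17 genes of locus architecture and silencing, the looping factor CTCF, cohesin and its regulators, DNA methyltransferases and SMCHD1 among them, 0 were called higher and 4 lower (median −0.22). The 4 were 23.5% of the list, where 12.2% of all genes were called lower and 23.6% either way. With the block the counts were 1 and 8. DNMT1, the maintenance DNA methyltransferase, had 4558, 5387 and 4891 against 11242, 14508 and 11844 (−1.34 ± 0.16, limma adjusted p = 1.72e-04), and DNMT3B had 119, 139 and 129 against 275, 350 and 320 (−1.28 ± 0.21, limma adjusted p = 0.00141). TRIM28, a corepressor of zinc finger proteins, fell by 0.78 ± 0.19 on the log2 scale (limma adjusted p = 0.0126), which was 0.114 without both P14 libraries and 0.0529 without vehicle P14, and the cohesin subunit SMC1A, named after its values were seen, was the remaining gene called lower. The SMC1A call was lost in 4 of 15 alternatives, without treated P15 or P19 or vehicle P15 or P19 (limma adjusted p from 0.0536 to 0.112). The part of these genes in the protocadherin results was not tested.

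Among Dachsous and Hippo partners of FAT cadherins 2 of 8 tested genes were called higher, SAV1 (0.91 ± 0.15, limma adjusted p = 0.00156) and LATS2 (0.82 ± 0.15, limma adjusted p = 0.00304). DCHS1, the ligand of FAT4, was called lower, with 22.6, 38.4 and 20.5 normalized reads against 55.3, 63.7 and 65.4 (−1.20 ± 0.35, limma adjusted p = 0.0294), a call lost in 7 of 15 alternatives. Of 11 tested desmosomal and other cadherin-domain genes 3 were called higher and 1 lower (median 0.38), and with the block 6 and 2. Desmocollin 3 (DSC3) had 12912, 15307 and 19653 against 4358, 6611 and 7512 (1.39 ± 0.23, limma adjusted p = 0.0014). Desmoglein 3 (DSG3) had 73.0, 109 and 181 against 0 in every vehicle library. It passed the filter through the FOLFIRINOX libraries alone, and with no filter its adjusted p was 2.87e-06 in limma. DSG2 was the other gene called higher, named after its values were seen, and CELSR3 was the gene called lower (−0.77 ± 0.25, limma adjusted p = 0.0485). Among cadherin shedding proteases 1 of 8 was called higher and 1 lower, MMP3 (1.35 ± 0.42, limma adjusted p = 0.0409) and MMP14 (−0.71 ± 0.18, limma adjusted p = 0.0167), and with the block 3 and 2. The calls of CELSR3, MMP3 and MMP14 were lost in 6, 8 and 4 of 15 alternatives.

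Libraries held 83981154 to 97762802 reads in genes. Mitochondrial ribosomal RNA took 1.18% to 2.74% of reads in FOLFIRINOX libraries and 0.552% to 0.864% in vehicle libraries, highest in FOLFIRINOX P14, and its part in the results was not tested. The exact permutation test of 3 against 3 libraries cannot go below p = 0.1, so single genes were judged in the fit across all genes. Of the markers of other cell types, 0 of 2 tested endothelial markers and 0 of 2 tested immune markers were called, with CLDN5 and TYROBP at 0, and 1 of 5 tested neuronal markers was called lower. Over all genes tested 12.2% were called lower and 23.6% either way. Summed levels of the endothelial, immune and neuronal markers were 430.8 to 564.8 against 504.7 to 575.1, 35.0 to 99.9 against 6.37 to 24.6, and 2114 to 3234 against 3109 to 5000.2 normalized reads.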

How the data were processed

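Polyadenylated RNA of 3 FOLFIRINOX and 3 vehicle libraries was enriched with an NEB kit and made into libraries with KAPA RNA HyperPrep, per the labels' protocols. Per the submitters' processing notes the authors ran featureCounts 2.0.6, DESeq2, STAR 2.7.11b and FastQC 0.12.1 on GRCh38. The strand setting and how shared reads were handled: not given in the sources used here. The deposited normalized signal of each library was a whole multiple of the value of 1 read for 100% of values, within 0.001 reads, so reads were recovered. The deposited table also holds the authors' log2 fold changes, test score and p-values, in which 66 of the genes have an adjusted p-value, 16 of them called higher and 5 lower, with 12 beta genes among the higher calls in the authors' deposited table. DESeq2 on recovered reads gave the same counts, and for PCDHGA5 the same adjusted p of 0.0513. The deposited values are therefore no separate check. The share of all genes called there was not counted.

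The main test was limma 3.58.1 (R 4.3.3) on log2(value + 1), its variance prior following the mean, over the 17951 genes that reached 10 in 3 or more libraries, and p-values were adjusted by Benjamini-Hochberg at 0.05. Fold changes on this scale understate those of low genes. The settings varied were the pseudocount (0.5 and 8), the filter (none, or 50), scaling (TMM), the tool (edgeR 4.0.16 and DESeq2 1.42.0 on recovered reads) and the libraries (each left out). A block on P number, and leaving out both P14 libraries, were added after seeing the data. Columns carry P14, P15 and P19, not the labels' replicate numbers. Deviations from group means correlated at 0.257, 0.282 and 0.288 within a P number, and from −0.263 to −0.0272 between P numbers, so P number was read as a pair from the column names.

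Genes named are those called, the 4 most abundant of each class and a fixed list of familiar members, others being marked as named after their values were seen. From each list of partner genes at most 3 called genes are given, with a minimum mean of 50. Members, classes and lists were chosen with earlier results of these data known. An item of the ductal marker list is not reported here. Coordinates and exonic lengths are from GENCODE 29 (GRCh38), promoters from RefSeq GRCh38.p14. Even values made up 72.3% to 74.8% of recovered counts below 50 (both mates of a fragment may have been counted). Replicates differed by more than sampling noise (chi-square per degree of freedom 66.6 to 210.5). On simulated data for this comparison (17199 genes), limma found 11 of 65 genes set to a 1.5-fold change, 48 of 66 at 2-fold and 63 of 64 at 4-fold, and made 6 false calls. The simulation set 200 genes to change, gave all genes the same dispersion and let no libraries deviate together by P number. Its counts are therefore not error rates of the real libraries. The count of 3 reads used as a floor covers counting error only, and takes each read as a separate fragment.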

Additional observations from a re-analysis of the deposited data

How the results depend on the processing

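With P number as a replicate block, 32 of the tested genes were called higher, and the counts were 2 lower in type II cadherins, 2 higher in FAT cadherins, 2 higher in non-clustered protocadherins, 1 higher in the alpha cluster, 12 higher in the gamma cluster and 11 higher among gamma A and B genes. The 32 include CDH10 and the alpha gene PCDHA10, which the filter let in through FOLFIRINOX libraries alone. The block ended none of the 22 calls. Without both P14 libraries 3 genes were called lower, 0 of them type II, and the gamma cluster had 0 calls higher and 0 lower, gamma A and B 0. With no filter 1 other CDH gene and 1 alpha gene were called higher and 0 gamma genes, 0 of them gamma A or B. TMM scaling and edgeR each left 1 gamma gene called higher, 1 among gamma A and B. Leaving out each library in turn gave 12 to 16 genes called higher and 4 to 5 lower, with 2 to 3 type I lower, 0 to 1 type II lower, 0 to 2 non-clustered higher, 10 to 12 beta higher, 0 to 2 gamma higher (0 to 2 of gamma A and B) and 0 to 1 gamma lower. The cause of these changes was not tested. Of all genes, 22.3% were called higher and 21.8% lower with the block, and 6.43% and 7.39% without both P14 libraries. In edgeR the shares were 10.1% and 13.3%, against 11.4% and 12.2% in the main test. They were not counted for the other settings, so the counts there cannot be set against all genes. The beta cluster had 11 calls higher with no filter, 9 with a filter at 50, 10 without both P14 libraries, 14 with the block and 12 in the other alternatives that kept all libraries. With the filter at 50, PCDHB3, PCDHB11 and PCDHB12 were too low to be tested, and every beta gene still tested was called.

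Of the 22 calls, 14 held in every alternative that gave a value. CDH10 is among the 14, but the filter let it in through the FOLFIRINOX libraries alone. Its calls in the filtered settings are therefore no evidence of their own, and with no filter its limma adjusted p was 3.1e-06. The log2 difference of PCDHA7, near 0, changed sign with a pseudocount of 0.5 (−0.00067), TMM scaling (−0.035) and without both P14 libraries (−0.28), and ranged from −0.24 to 0.30 with each library left out in turn.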
